A study of Mus musculus with 4 samples.

Results

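The Kruppel-like factors examined here were 10 genes of one transcription factor family, Klf2, Klf3, Klf4, Klf5, Klf6, Klf7, Klf9, Klf10, Klf11 and Klf13, chosen by gene symbol as family members known from epithelia. All 10 were found among the 24346 gene symbols for which FPKM, a read count scaled by transcript length and by the mapped reads of the library, was deposited. Cells positive for CD34 and CD49f were sorted from dorsal skin epithelium of adult C3H/HeN mice and cultured in a commercial serum-free medium (M-CnT), and messenger RNA of hair follicle stem cells (HFSCs) after 10 passages (10p-HFSCs, n = 2 libraries) and after 48 passages (48p-HFSCs, n = 2 libraries) was sequenced. The labels name no altered allele and no added agent in either group, and the groups differ in them only in the passage number. The sources do not say whether the 2 libraries of a group came from separate animals or cultures, so that p-values measure the spread between these libraries, which may be technical.

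Kruppel-like factors bind GC-rich and CACCC-type DNA through zinc fingers at their carboxy-terminal end, and differ in the parts of the protein that recruit other factors. One subgroup, with KLF4, KLF5, KLF6, KLF7 and KLF2, can recruit acetyltransferases, another, with KLF3, KLF8 and KLF12, binds the corepressor CtBP, and the third, with KLF9, KLF10, KLF11, KLF13 and KLF16, binds the corepressor SIN3A. In the epidermis KLF4 is needed for the skin barrier and is found in differentiating layers, while KLF5 is found in proliferating basal cells.

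The 250 bases before the transcription start (RefSeq, GRCm38.p6, from the C57BL/6J strain) are shown for Klf4, the only one of the 10 genes called changed, and for Klf3 and Klf8, which belong to the same CtBP-binding subgroup and stood apart in the libraries. Klf8 has 2 starts in the table. These RefSeq starts differ from the GENCODE gene positions given below. By those positions both windows of Klf8 lie within the gene, which begins at 153237466. The window of Klf3 runs past the gene start at 64803388. KLF3 is known to bind CACCC boxes and to repress Klf8 in other cell types. Capitals mark 2 motifs found as letter matches, which may overlap. The first is CACCC, which reads GGGTG on the other strand. The second motif, also known from Sp factors, is GGGCGG. Both strands were searched for it, and on the printed strand its reverse complement reads CCGCCC.
Klf4, chr4:55532476-55532725, minus strand: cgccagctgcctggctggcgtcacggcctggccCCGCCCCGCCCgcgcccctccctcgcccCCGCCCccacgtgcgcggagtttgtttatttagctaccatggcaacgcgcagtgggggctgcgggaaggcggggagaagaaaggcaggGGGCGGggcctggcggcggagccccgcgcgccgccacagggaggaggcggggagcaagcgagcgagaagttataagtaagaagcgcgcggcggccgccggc
Klf3, chr5:64803271-64803520, plus strand: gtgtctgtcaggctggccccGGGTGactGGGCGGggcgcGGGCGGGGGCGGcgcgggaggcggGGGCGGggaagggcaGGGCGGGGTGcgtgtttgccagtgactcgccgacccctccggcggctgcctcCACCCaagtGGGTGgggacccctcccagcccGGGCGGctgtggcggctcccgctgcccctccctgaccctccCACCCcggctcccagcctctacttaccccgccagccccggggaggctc
Klf8, first start, chrX:153237498-153237747, plus strand: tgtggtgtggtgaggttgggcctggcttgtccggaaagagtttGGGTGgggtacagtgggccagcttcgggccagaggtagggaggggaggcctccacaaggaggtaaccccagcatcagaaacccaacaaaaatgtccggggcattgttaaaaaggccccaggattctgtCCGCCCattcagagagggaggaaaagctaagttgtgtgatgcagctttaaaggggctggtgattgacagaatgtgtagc
Klf8, second start, chrX:153359363-153359612, plus strand: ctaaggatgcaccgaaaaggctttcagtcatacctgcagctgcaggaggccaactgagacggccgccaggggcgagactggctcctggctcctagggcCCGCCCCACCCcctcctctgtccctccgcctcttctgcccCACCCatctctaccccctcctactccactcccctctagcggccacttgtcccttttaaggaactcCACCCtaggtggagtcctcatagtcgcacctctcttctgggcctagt
The window of Klf3 held 5 matches of CACCC and 6 of GGGCGG, that of Klf4 held 0 and 4, and the windows of Klf8 held 1 and 1 at the first start and 3 and 1 at the second. A promoter was matched for 8 of the 10 genes. CACCC was in 5 of these 8 windows and in 52.0% of the 32851 windows of the same length in the table, and GGGCGG was in 7 of 8 and in 32.7%. CACGTG, which reads the same on both strands, was in 3 of 8 (Klf4, Klf6 and Klf11) and in 6.02%, and TATAAA (or TTTATA on the other strand) in 0 of 8 and in 12.4%. The GC content of the 8 windows ran from 59.2% to 78.4%, against a median of 52.4% over all windows. A letter match is a description of the window and does not show that a factor binds there.

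Markers of cell types were read before the comparison. The keratinocyte markers Krt5 (from 1473 to 8156), Krt14, Trp63, Itga6, Itgb4, Cdh1 and Perp were found in every library, and 2 of 7 (Itga6 and Itgb4) were called higher. By the same rule, given in the next paragraph, 10.8% of all 11018 genes tested were called higher and 9.15% lower. Of the hair follicle stem cell markers, Cd34, whose protein was used for the sort, was at most at 0.234 in any library and Lhx2, Nfatc1 and Tcf7l1 at most at 0.067, while Krt15 was between 18.8 and 424.8. Itga6, which encodes the CD49f of the sort and is in this list too, rose from 31.4 and 20.8 to 101.0 and 79.0 (limma adjusted p = 0.014), and Sox9 fell from 45.6 and 44.2 to 20.2 and 8.31 (limma adjusted p = 0.039). By qRT-PCR the paper reports Sox9 and Lhx2 as significantly raised after long culture, with Cd34 and Krt15 kept up. It also describes most of the long-cultured cells as positive for the CD34 protein. In the libraries Sox9 went the other way, and Lhx2 was listed at 0 in each 48p-HFSC library. The reason for this difference was not tested. Of 8 fibroblast markers, Dcn, Lum and Thy1 were listed at 0 in all libraries, and Vim and Col1a2 were called lower. Col1a2 passed the filter through its 10p-HFSC values alone and had to be lower. The summed FPKM of the list was between 352.9 and 387.7 in 10p-HFSCs and between 2.50 and 3.32 in 48p-HFSCs. In 10p-HFSCs, Vim (284.0 and 327.4) and Col1a2 (67.6 and 59.3) made up most of this sum. Col1a1, Col3a1 and Pdgfra were at most at 0.903 in any library. The 6 endothelial markers summed to at most 2.93 in any library and the 6 melanocyte markers to at most 2.73. The 7 leukocyte markers summed to between 8.44 and 8.97 in 10p-HFSCs and to between 60.2 and 83.0 in 48p-HFSCs, where Cd68 made up most of the sum, and Ptprc was at most at 0.071. The part of other cell types in the KLF differences given next was not tested, and in bulk RNA fewer cells of a type and less RNA per cell cannot be told apart.

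Of the 10 genes, Klf4 was called higher in 48p-HFSCs and none was called lower, and Klf2 was listed at 0 in all 4 libraries. Values were compared as log2(FPKM + 1) with limma, and a call needed an adjusted p under 0.05 and a change of 1 or more in log2. The filter, which asked for 2 or more libraries at an FPKM of 1 or above, kept 9 of the 10 genes, 1 of which was called higher and 0 lower by limma, while 4 had an unadjusted p under 0.05. Among all 11018 genes tested, 10.8% were called higher and 9.15% lower, and 4118 had an unadjusted p under 0.05. The mean of log2(FPKM + 1) was higher in 48p-HFSCs for 6 of the 9 genes and lower for 3 (7 and 2 by mean FPKM, where Klf13 changes sides), with a median log2 difference of 0.62 beside -0.03 over all genes tested. The median difference of the 9 genes was 0.05 when every library was rescaled to the same summed FPKM (TPM), a rescaling that moved the median of all genes to -0.55. The 48p-HFSC values were both above the 10p-HFSC values for 4 genes (Klf3, Klf4, Klf7 and Klf11) and below them for Klf9, where 31.7% of all genes tested lay above and 34.3% below.

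**Figure D1:**
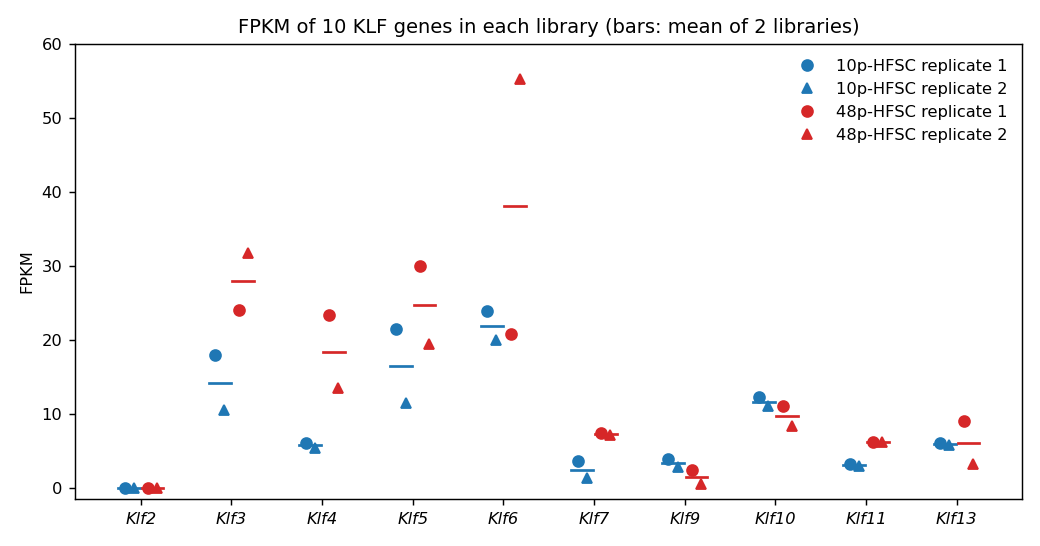
FPKM (linear axis) of the 10 genes in each library, with circles for replicate 1, triangles for replicate 2, blue for 10p-HFSCs, red for 48p-HFSCs and bars for the mean of 2 libraries. The 48p-HFSC values of Klf4, at 23.4 and 13.4, lie above both 10p-HFSC values, while those of Klf6, at 20.8 and 55.3, lie within and above its 10p-HFSC range.

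The subgroup that recruits acetyltransferases held the gene that was called and, in Klf6, the highest mean level of the family. Klf4 (chromosome 4 of mm10, 55527143 to 55532466, minus strand), the barrier factor, had an FPKM of 6.06 and 5.43 in 10p-HFSCs and of 23.4 and 13.4 in 48p-HFSCs. Both libraries at 48 passages were above both at 10 passages, and the mean rose 3.21-fold, from 5.74 ± 0.44 to 18.4 ± 7.03 (SD, n = 2). The log2 difference was 1.48 (standard error 0.34, 95% interval 0.65 to 2.31, limma adjusted p = 0.031). Klf4 also stood higher in the ranking of all genes tested, since 29.8% of them had a lower mean in 10p-HFSCs and 62.0% in 48p-HFSCs. This call was lost without the filter on low values (limma adjusted p = 0.069) and under rescaling to TPM, where the log2 difference was 0.97 (adjusted p = 0.41). The call was also lost without replicate 1 or without replicate 2 of 10p-HFSCs, at log2 differences of 1.55 and 1.41. Without replicate 1 of 48p-HFSCs the difference was 1.1, and without replicate 2 it was 1.86. Such a fit leaves 1 library in a group, which is assumed to vary like the other group, so that its calls are no check of the main one.

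Klf5 (chromosome 14, 99298691 to 99315036, plus strand), the factor of proliferating basal keratinocytes, was at an FPKM of 21.5 and 11.5 in 10p-HFSCs and of 30.0 and 19.5 in 48p-HFSCs. The groups overlapped, and the log2 difference of 0.59 (95% interval -0.36 to 1.54) did not pass the test (limma adjusted p = 0.31). It was 1.01 without replicate 1 and 0.16 without replicate 2 of 10p-HFSCs, 0.29 without replicate 1 and 0.89 without replicate 2 of 48p-HFSCs, and 0.04 under rescaling to TPM. The ratio of Klf4 to Klf5 within a library, which no scaling of the library can change, was 0.28 and 0.47 in 10p-HFSCs, as against 0.78 and 0.69 in 48p-HFSCs. Klf4 was thus below Klf5 in all 4 libraries, and the ratios of the groups did not overlap. For such a ratio the smallest two-sided p of an exact permutation test is 0.333 with 2 libraries a group.

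Klf6 (chromosome 13, 5861482 to 5870394, plus strand), a widely expressed member, had the highest mean of the family in both groups. It was at an FPKM of 23.9 and 19.9 in 10p-HFSCs, while the 48p-HFSC libraries were at 20.8 (replicate 1) and 55.3 (replicate 2). The 48p-HFSC replicates were 2.66-fold apart, and replicate 1 lay within the 10p-HFSC range and replicate 2 above it. Its log2 difference was 0.62 (95% interval -0.54 to 1.77, limma adjusted p = 0.38). It was -0.07 without replicate 2 of 48p-HFSCs, and 1.3 without replicate 1, each with 1 library left in that group.

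Klf7 (chromosome 1, 64029447 to 64122282, minus strand), known from the developing nervous system, had an FPKM of 3.62 and 1.26 in 10p-HFSCs and of 7.39 and 7.20 in 48p-HFSCs. The 48p-HFSC libraries nearly coincided and lay above both 10p-HFSC libraries, which were 2.87-fold apart. The log2 difference of 1.36 (standard error 0.40, 95% interval 0.39 to 2.33) missed the threshold (unadjusted p = 0.014, limma adjusted p = 0.061), although its size was close to that of Klf4. A correction for transcript length and GC content, added after the values were seen, gave 1.71 (limma adjusted p = 0.015). The difference was 0.84 without replicate 2 of 10p-HFSCs (limma adjusted p = 0.41), 1.87 without replicate 1 (adjusted p = 0.15) and 0.91 under rescaling to TPM (adjusted p = 0.43). Gm26649 and Gm13748 overlap Klf7 on the opposite strand, as Gm20033 does Klf3, and as Gm27252 and E030018B13Rik do Klf13. C230096K16Rik overlaps Klf3 on the same strand. The strand setting of the authors' counting is not given in the sources used here.

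Klf2 (chromosome 8, 72319033 to 72321656, plus strand), which is known from endothelial cells and lymphocytes, was listed at 0 in every library. None of 25 subunit genes of RNA polymerase II and of the Ndufa group was listed at 0 in any library. As FPKM values carry no read total, no upper limit can be set for Klf2.

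**Figure D2:**
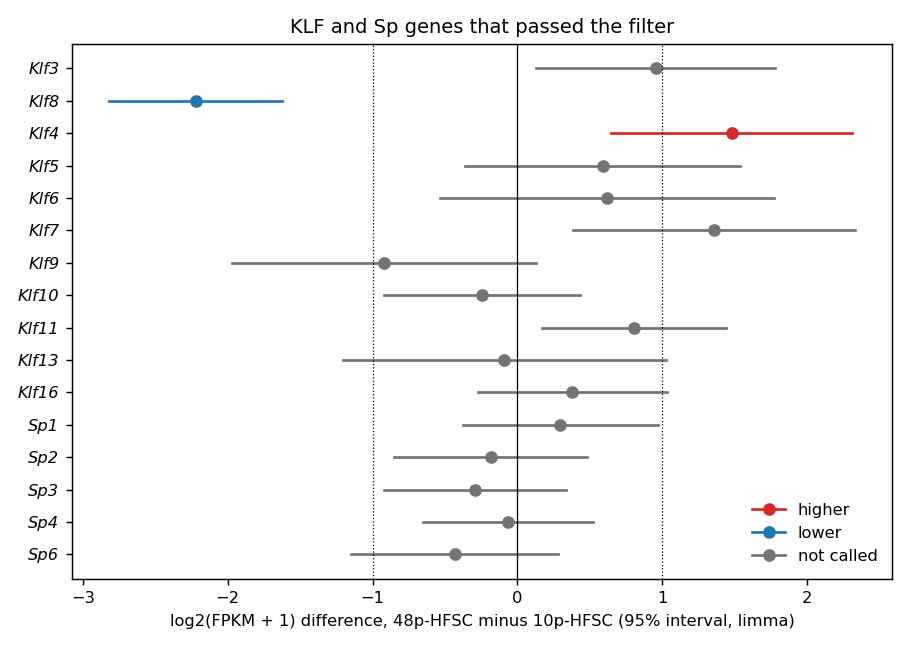
Log2(FPKM + 1) difference between 48p- and 10p-HFSCs (points) with its 95% interval from limma (lines) for the KLF and Sp genes past the filter. Among these 16 genes Klf4 (1.48) was called higher and Klf8 (-2.22) lower, and grey intervals belong to genes that were not called. Klf8 passed the filter through its 10p-HFSC values alone and had to be lower.

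The CtBP-binding subgroup held the family's largest difference, in a gene outside the list of 10. Klf3 (chromosome 5, 64803388 to 64832901, plus strand), which encodes a repressor, was at an FPKM of 17.9 and 10.5 in 10p-HFSCs and of 24.1 and 31.7 in 48p-HFSCs. All 48p-HFSC values were higher, by 1.96-fold in the mean, and the log2 difference was 0.96 (standard error 0.34, 95% interval 0.13 to 1.78). It was not called (unadjusted p = 0.030, limma adjusted p = 0.098), and after the added correction for length and GC content the difference was 1.21 (limma adjusted p = 0.040).
Klf8 (chromosome X, 153237466 to 153396132, plus strand) had FPKM values of 4.44 and 3.47 in 10p-HFSCs and of 0.042 and 0.074 in 48p-HFSCs. Neither 48p-HFSC library reached an FPKM of 0.1. Their ratio was 1.775, and the FPKM value of 1 read also differs 1.775-fold between these libraries, which is the ratio that equal numbers of reads give. The fitted log2 change, -2.22 with a standard error of 0.24 (limma adjusted p = 0.0031), understates the change, because the 48p-HFSC values are far below the 1 that was added. Klf8 passed the filter through its 10p-HFSC values alone, so that it had to be lower in 48p-HFSCs. For the same reason, that it was also lower under all scalings tried is no further support. Without replicate 1 of 10p-HFSCs the log2 difference of Klf8 was -2.08, and it was not called there. Klf12, the remaining CtBP-binding gene, was listed at 0 in 10p-HFSCs and was at 0.107 and 0.076 in 48p-HFSCs, below the filter.

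In the SIN3A-binding subgroup no gene was called, and differences had both signs. Klf11 (chromosome 12, 24651274 to 24662789, plus strand), a repressor induced early by TGF-b, was at an FPKM of 3.22 and 2.98 in 10p-HFSCs and of 6.15 and 6.18 in 48p-HFSCs. Replicates were close in both groups and the groups did not overlap, with a log2 difference of 0.81 (standard error 0.26, 95% interval 0.17 to 1.44, unadjusted p = 0.021, limma adjusted p = 0.079). On the FPKM scale the ratio of means was 1.99. After the added correction for length and GC content the difference was 1.0 (limma adjusted p = 0.028).
Klf10 (chromosome 15, 38291463 to 38300706, minus strand), the close relative of Klf11 that is also induced early by TGF-b, was at 12.2 and 11.0 in 10p-HFSCs, against 11.1 and 8.40 in 48p-HFSCs. These values overlapped, and the log2 difference was -0.25 (95% interval -0.92 to 0.43, limma adjusted p = 0.55). The ratio of Klf10 to Klf11 within a library was 3.80 and 3.70 in 10p-HFSCs, as against 1.80 and 1.36 in 48p-HFSCs, without overlap.
Klf9 (chromosome 19, 23141226 to 23168134, plus strand), which responds to glucocorticoids in many cells, was at an FPKM of 3.83 and 2.77 in 10p-HFSCs, against 2.35 and 0.513 in 48p-HFSCs. Both 48p-HFSC values were lower, but they were 4.58-fold apart, and the log2 difference of -0.92 (95% interval -1.97 to 0.13) did not pass the test (limma adjusted p = 0.17). Without replicate 1 of 48p-HFSCs it was -1.5, and without replicate 2 it was -0.35, each with 1 library left in that group.
Klf13 (chromosome 7, 63886351 to 63938915, minus strand), closely related to Klf9, was at 6.03 and 5.74 in 10p-HFSCs, against 9.04 and 3.16 in 48p-HFSCs. The 48p-HFSC replicates lay on either side of the 10p-HFSC range, 2.86-fold apart, and the log2 difference was -0.09 (95% interval -1.21 to 1.02, limma adjusted p = 0.90). It was 0.54 without replicate 2 of 48p-HFSCs. Klf16, outside the list of 10, was at 12.5 and 14.6 in 10p-HFSCs, against 16.0 and 20.0 in 48p-HFSCs, a log2 difference of 0.38 (limma adjusted p = 0.34) that was -0.17 under rescaling to TPM. Of the 9 genes tested, 3 (Klf6, Klf9 and Klf13) differed by at least 2-fold between the 48p-HFSC replicates, as did 26.3% of all genes tested, and 1 (Klf7) did so between the 10p-HFSC replicates.

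The make-up of the family was read from FPKM, which is per length and can be compared between genes. The 10 genes summed to an FPKM of 98.25 and 71.17 in 10p-HFSCs and of 134.2 and 145.4 in 48p-HFSCs. Rescaled to TPM, the sums were 168.9 and 98.98 in 10p-HFSCs, as against 201.6 and 102.8 in 48p-HFSCs, and then overlapped, so that no direction holds for the family sum. Klf4 made up 6.17% and 7.63% of the sum in 10p-HFSCs, as against 17.4% and 9.25% in 48p-HFSCs, and Klf10 made up 12.5% and 15.5% and then 8.24% and 5.78%. Klf6 took 24.3% and 28.0% in 10p-HFSCs, as against 15.5% and 38.0% in 48p-HFSCs, the widest spread of any member within a group.
In 10p-HFSCs the order by mean FPKM was Klf6, Klf5, Klf3, Klf10, Klf13, Klf4, Klf9, Klf11 and Klf7. Only Klf10 above Klf13, and Klf4 above Klf9, were neighbours whose values in 2 libraries did not overlap, apart from Klf7 above Klf2 at 0. In 48p-HFSCs the order was Klf6, Klf3, Klf5, Klf4, Klf10, Klf7, Klf11, Klf13 and Klf9. There the neighbours Klf6, Klf3, Klf5 and Klf4 overlapped, as did Klf11 and Klf13, and each other pair of neighbours was separated. Klf4 thus stood in 6th place at 10 passages, level with Klf13, and in 4th place at 48 passages, above Klf10 in both libraries.

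**Figure D3:**
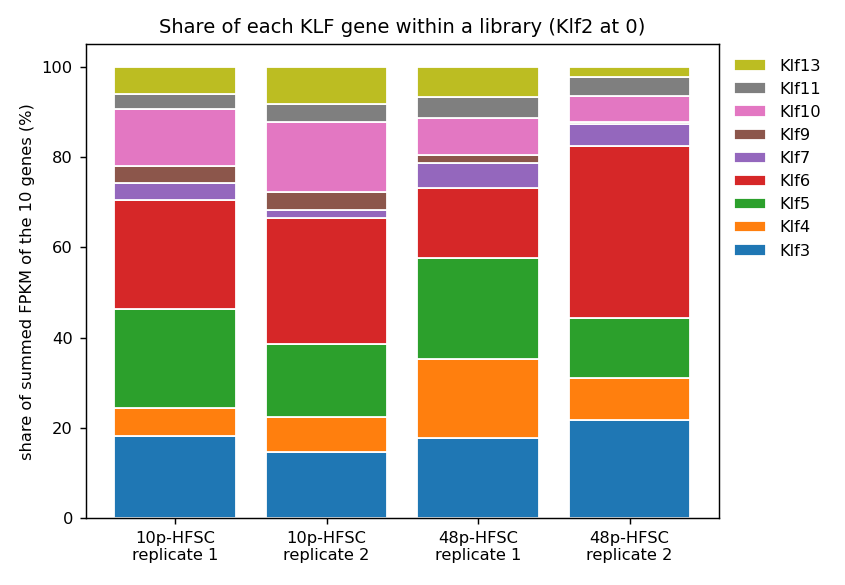
Stacked bars of the share (%) that each gene took of the summed FPKM of the 10 genes, one bar per library. The share of Klf4 is 6.17% and 7.63% in the 10p-HFSC bars and 17.4% and 9.25% in the 48p-HFSC bars, and that of Klf6 differs most between the 48p-HFSC replicates.

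The genes with differences near the threshold depended on the settings to unequal degrees. Klf4 kept a log2 difference of at least 0.97 under every alternative tried, while that of Klf3 was 0.40 and that of Klf11 was 0.34 under rescaling to TPM. Klf7 was lowest without replicate 2 of 10p-HFSCs, at 0.84. Klf3, Klf4, Klf7 and Klf11 were all called higher under the added correction for transcript length and GC content, 4 of the 9 genes, where 1 was called without it. In that fit 11.6% of all 10593 genes tested were called higher and 9.78% lower.

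**Figure D4:**
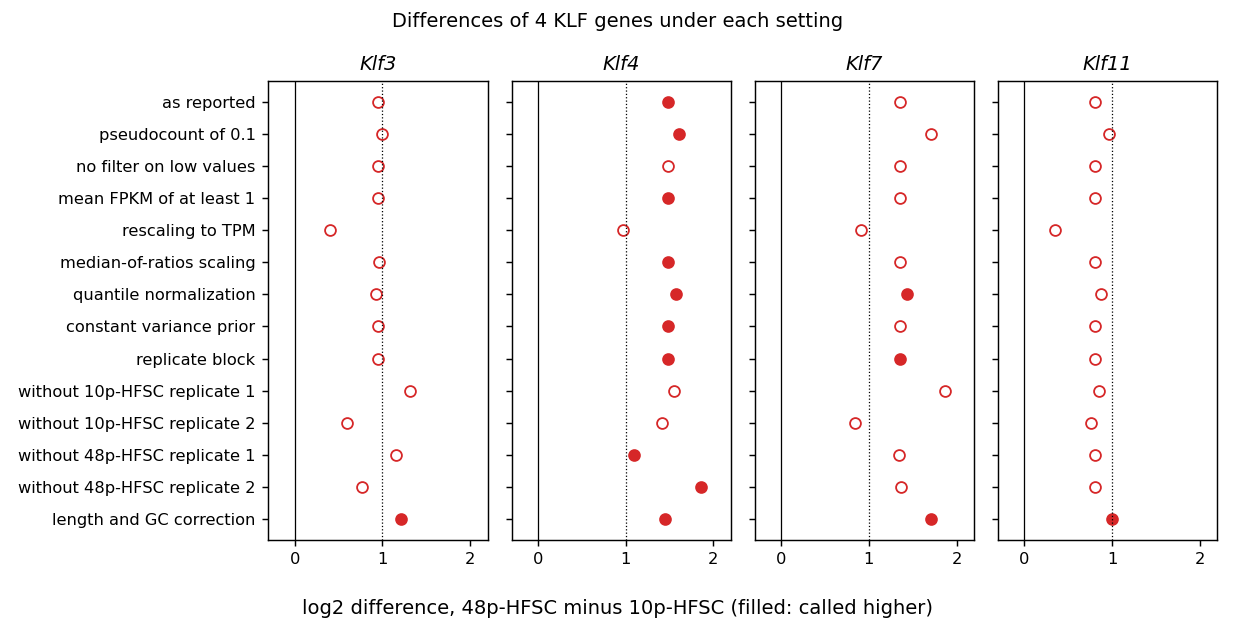
Log2 difference of Klf3, Klf4, Klf7 and Klf11 under each setting (rows), with filled circles where the gene was called higher, a solid line at 0 and a dotted line at 1. All circles lie above 0, and those for rescaling to TPM lie lowest for Klf3, Klf4 and Klf11.

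Other genes of the family were mostly at or near 0. Of the 7 KLF symbols outside the list of 10, Klf8 and Klf16 passed the filter, Klf14 was listed at 0 in all libraries, and Klf1, Klf12, Klf15 and Klf17 did not exceed an FPKM of 0.1102. The Sp factors bind the same GC-rich boxes, and 5 of 9 passed the filter. Of these, 0 were called by limma and 0 had an unadjusted p under 0.05, as 4118 of all 11018 genes tested had. Sp1 was at 18.1 and 14.0 in 10p-HFSCs, against 17.8 and 21.8 in 48p-HFSCs, and Sp3 at 26.9 and 21.3 and then at 19.3 and 19.3. Sp6, a factor of hair and tooth epithelium, was at 13.9 and 16.8 and then at 13.1 and 9.27, a log2 difference of -0.43 (95% interval -1.15 to 0.28, limma adjusted p = 0.32). Sp2 and Sp4 had log2 differences of -0.19 and -0.06.

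The position of the genes was set beside their differences, because the median difference varied between chromosomes. The median log2 difference of the 664 other tested genes on chromosome 4, which carries Klf4, was 0.09, and 90.7% of them lay below Klf4. On chromosome 5, which carries Klf3, the median of 685 genes was -0.33, and 90.2% lay below Klf3. On chromosome 14, which carries Klf5, the median was 0.44, and 56.0% of 364 genes lay below Klf5, whose difference was therefore near the middle of its chromosome. On chromosome 12, with Klf11, the median was -0.19, and on chromosome 1, with Klf7, it was -0.02. The part of the chromosome in these differences was not tested.

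Genes that act with Kruppel-like factors were taken as lists of their cofactors, of enzymes that turn the proteins over, of routes that induce them and of genes that they regulate. With the other KLF and the Sp genes, the lists held 103 genes found in the files beside the 10, and 80 of these passed the filter. Of the 80, 13 were called higher and 9 lower, where 10.8% of all genes tested were called higher and 9.15% lower. Among these calls, Klf8, Mef2c, Egr2, Egr3 and Thbd passed the filter through 10p-HFSC values alone and had to be lower. Tgm1, Cdsn and Sprr1a passed it through 48p-HFSC values alone and had to be higher, so that the counts give no support to a direction. The median log2 difference of the 80 was 0.20 beside -0.03 over all genes tested. Counts of single lists given next are to be read beside the same shares.
Among 10 cofactors, all past the filter, 0 were called higher and 1 was called lower. This was Crebbp, an acetyltransferase, at an FPKM of 7.36 and 4.37 in 10p-HFSCs and of 1.95 and 0.702 in 48p-HFSCs (log2 difference -1.58, limma adjusted p = 0.039). The corepressor gene Ctbp1 was at 69.8 and 95.5 and then at 40.8 and 52.1, without overlap, but was not called (limma adjusted p = 0.11), and Sin3a overlapped between the groups.
Of 7 turnover genes, Itch, the ubiquitin ligase of KLF10, was called lower, from 24.5 and 15.3 to 8.62 and 6.34 (log2 difference -1.28, limma adjusted p = 0.045). Wwp1, a ubiquitin ligase of KLF5, was at 10.7 and 9.33 and then at 14.5 and 13.9 (limma adjusted p = 0.23), and Fbxw7 overlapped between the groups. The remaining turnover genes were not called.

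The ERK5 and MEF2 route is known to induce Klf2 and Klf4 in endothelial cells. Of its 8 genes, all past the filter, 1 was called lower and 0 higher. Mef2c fell from an FPKM of 2.304 and 1.67 to 0.058 and 0.034 (limma adjusted p = 0.0098). Map2k5, the kinase that activates ERK5, was at 9.06 and 9.40 and then at 5.22 and 4.12 (limma adjusted p = 0.077), and Mapk7, which encodes ERK5, was at 8.99 and 10.3 and then at 7.51 and 5.22 (adjusted p = 0.23). Mef2c passed the filter through its 10p-HFSC values alone. The median log2 difference of the list was -0.40, and the part of this route in the level of Klf4 was not tested.
In the list of the early TGF-b response, 1 of 11 tested genes was called higher and 1 lower. Tgfbi, a secreted matrix protein, rose from 5.25 and 5.49 to 48.9 and 28.3 (log2 difference 2.59, limma adjusted p = 0.0051), and Ctgf, another secreted matrix protein, fell from 85.7 and 69.4 to 7.24 and 6.71 (log2 difference -3.29, limma adjusted p = 0.0012). Smad7, whose gene KLF10 is known to repress, was at 1.93 and 2.22 and then at 2.66 and 4.89, without overlap, and was not called (limma adjusted p = 0.23).
An unadjusted p under 0.05 was found for 4118 of all 11018 genes tested. Of 6 tested glucocorticoid-responsive genes, 0 were called by limma, and 2 had an unadjusted p under 0.05. These were Sgk1, a kinase gene, at 103.4 and 90.2 and then at 36.9 and 5.34 (limma adjusted p = 0.065), and Dusp1, a phosphatase gene, at 1.32 and 1.92 and then at 7.49 and 3.61 (limma adjusted p = 0.063). They lay on opposite sides of the 10p-HFSC values. Per1 and Tsc22d3 were highest in replicate 2 of 48p-HFSCs, in which Sgk1 was lowest, with Per1 at 6.78 and 5.95 in 10p-HFSCs, against 9.38 and 30.4 in 48p-HFSCs, and Tsc22d3 at 10.6 and 11.1 and then at 11.3 and 35.1. The part of this response in the level of Klf9 was not tested.

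Immediate early genes, with which Klf4, Klf6 and Klf10 are counted in many cells, were called in both directions, 3 higher and 2 lower of 14 tested. Jun rose from 7.26 and 6.38 to 31.9 and 35.0 (log2 difference 2.14, limma adjusted p = 0.0038), Junb from 60.8 and 52.1 to 108.6 and 133.8, and Cyr61 from 34.2 and 41.5 to 236.8 and 672.3. Egr3 fell from 3.07 and 3.42 to 0.426 and 0.058 (limma adjusted p = 0.0081), and Egr2, at 1.17 and 1.36 in 10p-HFSCs, had a listed value of 0 in each 48p-HFSC library. Egr2 and Egr3 passed the filter through 10p-HFSC values alone and had to be lower. Fos overlapped between the groups.
Of 12 tested genes that KLF4, KLF5, KLF6, KLF2 or KLF3 are known to regulate, 5 were called higher and 2 lower. Plau, the urokinase gene and a target of KLF6, rose from 39.0 and 37.2 to 405.9 and 511 (log2 difference 3.55, limma adjusted p = 0.0014). Lgals3, a gene that KLF3 is known to repress, rose from 44.0 and 62.0 to 351.1 and 694.8 (log2 difference 3.22, limma adjusted p = 0.0059). Krt19, a target of KLF4, rose from 14.2 and 12.1 to 154.7 and 48.8 (log2 difference 2.64, limma adjusted p = 0.023). Thbd, a target of KLF2 in endothelium, was at 2.29 and 2.47 in 10p-HFSCs and was listed at 0 in 48p-HFSCs, so that it could pass the filter only as a lower gene, and Igf1r fell from 18.9 and 16.9 to 8.15 and 7.41 (limma adjusted p = 0.033). Cdkn1a, the gene of the cell cycle inhibitor p21 and a target of KLF4 and KLF6, was at 91.4 and 109.7 and then at 186.2 and 265.2, without overlap, and was not called (limma adjusted p = 0.059).
Genes of late epidermal differentiation, the stage at which KLF4 acts in the epidermis, numbered 12 in the files. Of these, 6 were listed at 0 in all libraries, namely Krt1, Krt10, Lor, Sprr2a1, Sprr2d and Rptn. Tgm3 stayed below the filter and went down with passage, from 0.620 and 0.329 to 0.284 and 0. The other 5 passed the filter, and of these 5, 4 were called higher and 0 lower. Sprr1b, a precursor of the cornified envelope, rose from 15.1 and 12.8 to 207.6 and 242.4 (log2 difference 3.92, limma adjusted p = 0.00092), Tgm1, the enzyme that crosslinks the envelope, from 0.037 and 0.027 to 6.57 and 11.1, and Sprr1a from 0.998 and 0.813 to 15.9 and 8.01. Of the 5, 3 (Tgm1, Cdsn and Sprr1a) passed the filter through their 48p-HFSC values alone and had to be higher there, so that the count of 4 gives no support to a direction of the list. The others were Sprr1b and Ivl, a further envelope precursor, which was at 8.12 and 8.49 and then at 84.1 and 13.1 and was not called (limma adjusted p = 0.14).

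**Figure D5:**
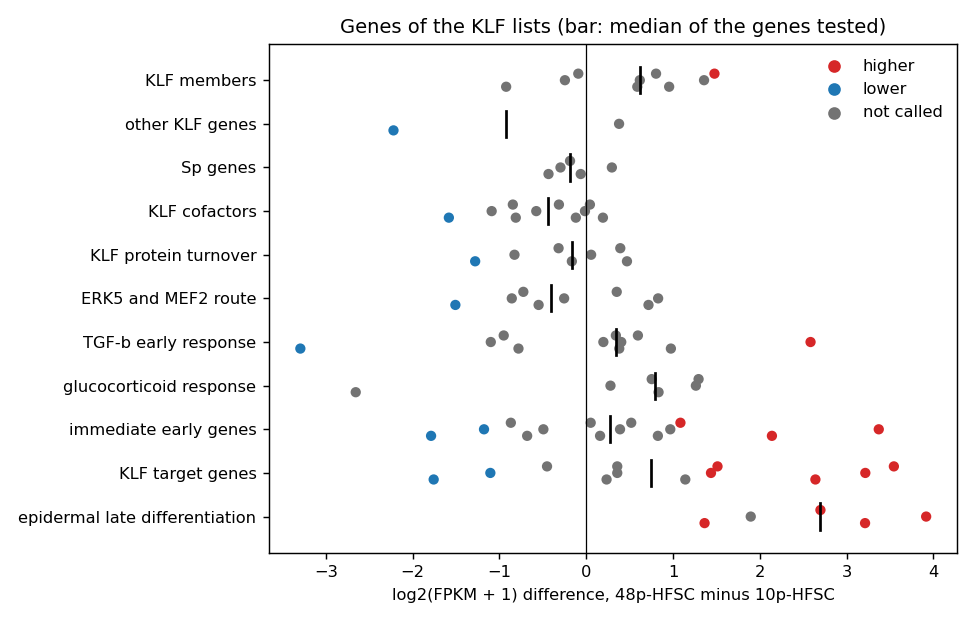
Log2(FPKM + 1) difference of each tested gene (points) in each list (rows), red where called higher, blue where called lower and grey where not called, with a black bar at the median of the list. In the row of the 10 KLF genes Klf4 is the only red point, and 3 of the 5 points in the row of late differentiation genes passed the filter through 48p-HFSC values alone.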

How the data were processed

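The data were RNA-seq libraries, 2 of 10p-HFSCs and 2 of 48p-HFSCs, made with a strand-specific kit and sequenced single-end. The authors mapped the reads to mm10 with TopHat and Bowtie2 and deposited one FPKM value per gene symbol and library. The submitters' processing notes name TopHat2 2.1.1, Bowtie2 2.2.8, SAMtools 0.1.18 and Cuffdiff 2.2.1, and the paper's methods name Cufflinks and other versions of Bowtie2 and SAMtools. The annotation, the strand setting and the handling of reads with several matches are not given in the sources used here. The study's own test was made on read counts, which were not used here.

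FPKM values were taken to log2 after adding a pseudocount of 1, genes reaching an FPKM of 1 in 2 or more libraries were kept, and the groups were tested with limma 3.58.1 (R 4.3.3) (variance trend, Benjamini-Hochberg over 11018 genes). Fold changes on this scale are understated for low genes. Positions came from GENCODE M21 on GRCm38 (mm10), in which 95.6% of symbols had one gene, and promoters from RefSeq on GRCm38.p6. The fit was tested on simulated data.

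The 10 KLF genes, the lists and the markers were chosen with earlier results of these data known. All KLF genes, the Sp genes past the filter, and of each other list at most the 3 largest called increases and decreases without overlap were named. Ctbp1, Sin3a, Wwp1, Fbxw7, Map2k5, Mapk7, Smad7, Sgk1, Dusp1, Per1, Tsc22d3, Fos, Cdkn1a, Ivl, Cdsn, the markers and the ratios between genes were chosen after their values were seen. No gene was named for a similar pattern, as 4 libraries do not allow it.

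FPKM values carry no read totals. The commonest ratio between low FPKM values put the depth, relative to replicate 1 of 10p-HFSCs, at 71.6% in replicate 2 of 10p-HFSCs, and at 82.9% and 46.7% in replicates 1 and 2 of 48p-HFSCs. Counting intervals and floors need read totals and were not computed. Alternatives were another pseudocount, 2 other filters, 3 scalings, a constant variance prior, other thresholds, a replicate block, leaving out each library and, added later, a correction for transcript length and GC content and a log2 ratio of means.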

Additional observations from a re-analysis of the deposited data

How the results depend on the processing

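Of the 10 KLF genes, 1 was called higher and 0 lower. The count called higher was 0 without the filter on low values and under rescaling to TPM, 2 under quantile normalization, at an adjusted p under 0.1 and with the replicate block, and 4 with the added correction for length and GC content, with or without the block. When single libraries were left out it ran from 0 to 2, and the count called lower from 0 to 1. The added genes were Klf7 under the former 3 settings, and Klf3, Klf7 and Klf11 under the correction. Leaving out a library leaves one group with 1 sample, which is assumed to vary like the other group. The lowest counts came without either 10p-HFSC library and the highest without replicate 1 of 48p-HFSCs, where Klf6 was called higher besides Klf4, and Klf9 lower. Over these fits, 35 to 1936 of all genes were called higher and 140 to 1875 lower, where 1189 and 1008 were called with all 4 libraries. Of the listed genes, 0 to 20 were then called higher and 0 to 14 lower, where 13 and 9 were called with all 4.

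Under rescaling to TPM, 620 of all genes and 6 of the listed genes were called higher, and without the filter 637 of all genes were called lower. The log2 difference of Klf13, which was not called, turned from -0.09 to 0.0625 under quantile normalization, to 0.124 with the correction for length and GC content with or without the block, to 0.0517 as a ratio of means without a pseudocount, and to 0.544 without replicate 2 of 48p-HFSCs (range over the libraries left out -0.726 to 0.544). That of Klf6 was -0.0673 without that library, the lowest of a range up to 1.3. Under rescaling to TPM, Klf16 turned to -0.17 and Sp1 to -0.258, and Sp4 turned to 0.22 with the correction, with or without the block, and to 0.0781 without replicate 1 of 48p-HFSCs (range -0.204 to 0.0781). The cause was not tested.

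Of the other genes named from the lists, Crebbp, Itch, Junb, Krt19 and Igf1r were no longer called without the filter, and these and Tgfbi and Jun were no longer called under rescaling to TPM. The correction for length and GC content ended the calls of Junb (0.937, limma adjusted p = 0.053) and Igf1r (-0.664, adjusted p = 0.085). A pseudocount of 0.1 ended that of Crebbp (adjusted p = 0.053), and a constant variance prior that of Itch (adjusted p = 0.052). Both groups use replicate numbers 1 and 2, but no source says that a number marks a shared batch. Across genes, deviations from the group mean correlated at 0.408 between same-numbered libraries. A fit with the replicate block called 1613 of all genes higher and 1497 lower, and among the KLF genes Klf7 was called besides Klf4. The depth, lowest in replicate 2 of 48p-HFSCs, limits what can be said of low values such as those of Klf8 and Klf9 there.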
